A study of Mus musculus with 41 samples.

Results

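The nuclear oxidative phosphorylation subunits are the proteins of the mitochondrial respiratory chain and ATP synthase that are encoded in the nucleus. They were taken here as every gene with a transcript annotated protein_coding and a symbol that begins with Ndufa, Ndufb, Ndufc, Ndufs, Ndufv, Uqcr, Cox4, Cox5, Cox6, Cox7, Cox8 or Atp5, or is Sdha, Sdhb, Sdhc or Sdhd. The assembly factors named Ndufaf were left out. The rule used no measured value. It found 87 genes under 86 symbols, of 55385 genes with RNA values and 22438 genes with footprint values, and all 87 were in both. By symbol, 39 belong to complex I, 4 to complex II, 8 to complex III, 18 to complex IV and 18 to complex V.

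Complexes I to IV pass electrons from NADH and succinate to oxygen. Complexes I, III and IV pump protons out of the mitochondrial matrix, and complex V (ATP synthase) lets the protons back in to make ATP. The mitochondrial genome encodes 13 subunits of complexes I, III, IV and V, and every subunit of complex II comes from the nucleus. Nuclear subunits are made on cytosolic ribosomes and imported, many are small accessory proteins, and several of complex IV and the c-ring of ATP synthase exist as isoforms from separate genes.

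The series compared mice and cells with defects in mRNA quality control. HBS1L and PELO form a complex that releases stalled ribosomes, and UPF2 is a core factor of nonsense-mediated decay (NMD), which removes transcripts with premature stop codons. Ribosome profiling counted ribosome protected fragments (RPF, footprints) on coding sequences in 30 libraries, and poly(A) RNA was sequenced in 11 libraries. Embryos at E8.5 on C57BL/6NJ were Hbs1l-/- or Hbs1l+/+, with 3 replicates of 5 pooled embryos each. Cerebella at P14 on C57BL/6J came from 3 mice with Tg(Atoh1-Cre); Hbs1l fl/- and 3 with Tg(Atoh1-Cre); Hbs1l+/+, both with the n-Tr20 allele of B6J. Atoh1-Cre acts in the granule cell lineage, so that the other cells of the mutant cerebella keep 1 copy of Hbs1l. The mouse embryonic fibroblasts (MEFs) were primary cells that carried Tg(CAG-Cre/Esr1) and the B6J n-Tr20 allele, and both controls and mutants were treated with 4-hydroxytamoxifen. Their floxed alleles were Hbs1l fl/-, Pelo fl/fl or Upf2 fl/fl, with 3 footprint libraries per genotype and 3 control libraries in each of the 3 sequencing pools. MEF RNA came from 3 control, 3 Hbs1l-/-, 2 Pelo-/- and 3 Upf2-/- replicates, each from 1 embryo, and a further Pelo-/- RNA sample was left out by the submitters as an outlier. No RNA was sequenced from embryos or cerebella.

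Most members are short genes and some have close copies elsewhere in the genome, which bears on what a footprint can be assigned to. Their median coding length was 420 bases (range 156 to 2192), against 1178 bases over all genes with a coding length, and 62 of the 87 had at most 600 coding bases. Coding length here is that of the coding exons of all transcripts of a gene, and unique stretches were counted in the transcript with the most RNA in control MEFs. Of the 86 members with an annotated coding sequence, 34 had no stretch of 30 coding bases in common with the transcripts of another gene, 46 had at least 90% unique stretches, 19 had under 50% and 6 had none (Atp5g1, Atp5g2, Atp5l, Cox7c, Ndufab1 and Ndufb4). The first 30 coding bases of 6 members are shown to make this plain, with the start codon in capitals, as Gencode M21 transcripts on GRCm38 give them 5′ to 3′. Atp5g1, Atp5g2 and Atp5g3 encode the c subunit of the proton-driven ring of ATP synthase, Atp5l its membrane subunit g, Cox7c a small subunit of complex IV and Ndufb4 an accessory subunit of the membrane arm of complex I.
Atp5g1 (chr11:96074996-96075025, minus strand, found in 2 other genes): ATGcagaccaccaaggcactgctcatttct
Atp5g2 (chr15:102667720-102667749, minus strand, found in 2 other genes): ATGtacgcctgctccaagttcgtctctacc
Atp5g3 (chr2:73910964-73910993, minus strand, found in 0 other genes): ATGttcgcctgcgccaagctcgcccgcacc
Atp5l (chr9:44920632-44920661, minus strand, found in 2 other genes): ATGgccaagttcatccgtaacttcgcggag
Cox7c (chr13:86046646-86046675, minus strand, found in 1 other gene): ATGttgggccagagtatccggaggttcacg
Ndufb4 (chr16:37654330-37654359, minus strand, found in 1 other gene): ATGtcgggttccaagtataagcctgcgccc

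Footprint counts were low in several members of this kind. Cox7c had 2, 10 and 0 footprints in the control embryo libraries and 2, 0 and 0 in the control MEF libraries of the Hbs1l pool, while its RNA in control MEFs stood at 388 TPM (a level per transcript length, relative to the library). Atp5l had 15, 16 and 19 footprints in those MEF libraries, 4.48 ± 0.876 (SD, n = 3) CPM (counts relative to the library total) per 1000 coding bases, against 565 TPM of RNA. Atp5g1 had 7.84 ± 0.387 (SD, n = 3) on the same footprint scale against 329 TPM, whereas Atp5g3, whose start is found in no other gene, had 1110 ± 42.9 (SD, n = 3) against 529 TPM. Low footprints of the 6 members with no unique stretch are therefore not read as low translation here. Ndufa4l2, a paralog of Ndufa4 whose coding stretches were all unique, showed the opposite, with 71, 65 and 65 footprints in these MEF libraries and 3, 8 and 20 estimated RNA counts in the control MEF RNA. Cox8c and the second Atp5o gene were at 0 in every footprint library, and Cox7b2 and Cox8b reached at most 8 and 29 counts in any of them. Ndufb1-ps has footprint counts but no coding sequence in the Gencode release used here for lengths and sequences, which is older than the one the authors counted on. After the filter on low counts, 78 to 84 members were tested in the comparisons below.

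Library totals ran from 2634480 to 7298812 counts in embryos, 10919139 to 22591768 in cerebella, 5782990 to 25607974 in MEF footprints and 22713643 to 86425762 in MEF RNA. Control MEF footprint libraries with the same number in different pools differed by a chi-square of 1.1 to 1.18 per gene, close to sampling noise, against 3.91 to 11.95 for other control pairs. They may be 1 library sequenced again, so the 3 MEF footprint comparisons share their controls, as the RNA comparisons do. The targeted genes checked the labels. Hbs1l stood at 2.98, 2.77 and 9.07 CPM (with library sizes scaled by TMM) in Hbs1l-/- embryos against 50.6 to 60.0, and Pelo RNA at 0.0867 and 0.549 CPM in Pelo-/- MEFs against 23.4 to 24.7. Upf2 went against its label, with 113 to 119 CPM of footprints in the libraries labelled Upf2-/- against 49.2 to 58.3 in their controls and 30.04 to 63.0 CPM of RNA against 15.9 to 21.5, and every direction given for these libraries carries that limit. Reads of the floxed part were not counted apart from the rest of the gene, and the reason for this level was not tested. The share of transcripts annotated as NMD targets, given with the RNA below, was above all controls in these libraries. Labelled tissues showed their markers, with summed granule neuron markers of 2203 to 3651 CPM in control cerebella and summed fibroblast markers of 17919 to 18240 CPM in control MEF footprints. Replicates were separate embryo pools, mice or MEF cultures from single embryos, and p-values measure the spread between these samples.

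Together the subunit genes held 1.75% to 2.13% of the footprints of an embryo library, 2.36% to 2.82% of a cerebellum library and 1.04% to 1.16% of a MEF library. In MEF footprints the 3 Hbs1l-/- libraries (1.09% to 1.11%) and the 3 labelled Upf2-/- libraries (1.04% to 1.08%) lay below all control libraries (1.137% to 1.16%), and so did the 3 Pelo-/- libraries by a narrow margin (1.128% to 1.136%). In RNA the 2 Pelo-/- libraries, at 0.912% and 0.918%, lay below all others, with control libraries at 1.05% to 1.16%, labelled Upf2-/- at 1.01% to 1.05% and Hbs1l-/- at 1.12% to 1.2%. In such bulk samples, fewer cells of a type and less RNA per cell cannot be told apart.

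**Figure D1:**
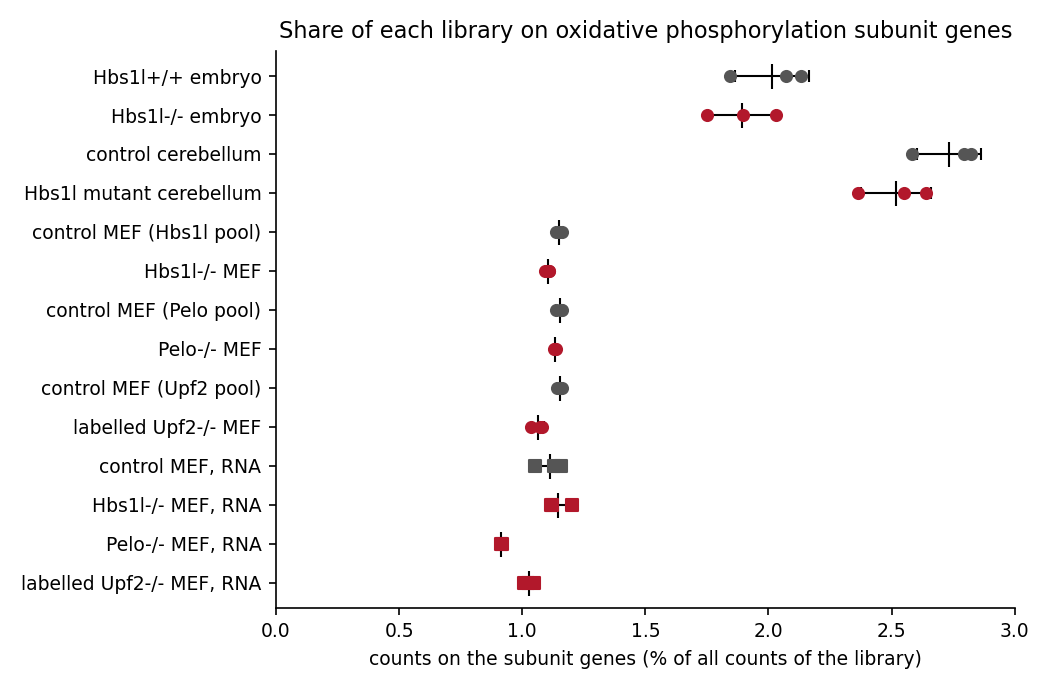
Counts on the 87 subunit genes as a percentage of all counts of each library, one point per library (circles for footprints, squares for RNA, grey for controls, red for mutants), with the group mean and SD. Cerebella lie highest (2.36% to 2.82%), MEF footprints at 1.04% to 1.16%, and the 2 Pelo-/- RNA libraries lowest at 0.912% and 0.918%.

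Levels were compared between members per length, as footprint CPM per 1000 coding bases with the library total unscaled, in control libraries. In complex V, Atp5b, the catalytic beta subunit, stood at 1875 ± 179 (SD, n = 3) in embryos, 1800 ± 191 (SD, n = 3) in cerebella and 1202 ± 63.9 (SD, n = 3) in MEFs. It exceeded Atp5c1, the single gamma subunit of the rotor, by 4.75 ± 0.453, 3.54 ± 0.343 and 4.43 ± 0.351 times (SD, n = 3 each). The alpha subunit Atp5a1, which is present in the enzyme in the same number as beta, had 0.585 ± 0.0338, 0.674 ± 0.11 and 0.486 ± 0.0249 times the level of Atp5b (SD, n = 3 each). Thus alpha footprints per length stayed under beta footprints in every control library, the highest ratio being 0.738.

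In complex III the core proteins Uqcrc1 and Uqcrc2, which pair in the enzyme, had similar footprints per length. Their ratio was 1.16 ± 0.032 in embryos, 1.15 ± 0.027 in cerebella and 1.25 ± 0.0716 in MEFs (SD, n = 3 each), while their RNA in control MEFs differed by 2.53 ± 0.149 times in TPM (SD, n = 3). Other pairs had the larger ratio in MEF footprints, such as Atp5d over Atp5c1, of the stalk of ATP synthase, at 2.53 ± 0.161 against 1.19 ± 0.182 in RNA, and Sdhc over Sdhb at 2.09 ± 0.294 against 0.718 ± 0.044 (SD, n = 3 each). In complex II, Sdha, the flavoprotein that oxidises succinate, stood at 201 ± 5.2, 244 ± 42.9 and 160 ± 3.96 (SD, n = 3 each), and its ratio to the iron-sulfur subunit Sdhb was 0.776 ± 0.0686, 0.68 ± 0.111 and 1.17 ± 0.0897. In complex I, the order of Ndufv1, which binds NADH and flavin, and Ndufs1, the largest iron-sulfur subunit, differed between tissues, with ratios of 1.48 ± 0.0335 in embryos and 0.862 ± 0.0459 in MEFs that did not overlap. In cerebella the ratio was 1.11 ± 0.108, with libraries on both sides of 1, and in MEF RNA 2.28 ± 0.188 in TPM (SD, n = 3 each).

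Isoforms of complex IV had a common and a rare member in all 3 tissues. Cox4i1, the ubiquitous form of a regulatory subunit, stood at 1141 ± 138 in embryos, 1750 ± 164 in cerebella and 615 ± 23.4 in MEFs, and Cox4i2, the form of lung and hypoxic tissues, at 39.7 ± 5.89, 22.3 ± 3.18 and 1.40 ± 0.624 (SD, n = 3 each). Cox4i2 was the largest share in embryos and the smallest in MEFs, with ratios to Cox4i1 of 0.0347 ± 0.00131, 0.0127 ± 0.000659 and 0.00227 ± 0.000993 that did not overlap. Cox6b2, the testis form of an intermembrane space subunit, had the reverse order, with ratios to Cox6b1 of 0.00771 ± 0.00298, 0.0240 ± 0.00297 and 0.0539 ± 0.00834. On the coding length of its leading transcript, 267 in place of 403 bases, they were 0.0118 ± 0.00455, 0.0367 ± 0.00454 and 0.0822 ± 0.0127 (SD, n = 3 each), in the same order. The heart and muscle form Cox7a1 stood at 34.2 ± 8.12, 60.0 ± 7.72 and 1.38 ± 0.296, against 1271 ± 85.4, 1436 ± 400 and 579 ± 21 for Cox7a2. Ndufa4, named as a complex I subunit but found in complex IV, was the highest Nduf member in cerebella at 3300 ± 355, and did not overlap its embryo values of 973 to 1244. Cox6a2, the other heart and muscle form measured throughout, stood at 6.32 ± 4.82, 8.80 ± 2.14 and 2.41 ± 0.598, with overlapping embryo and cerebellum libraries.

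**Figure D2:**
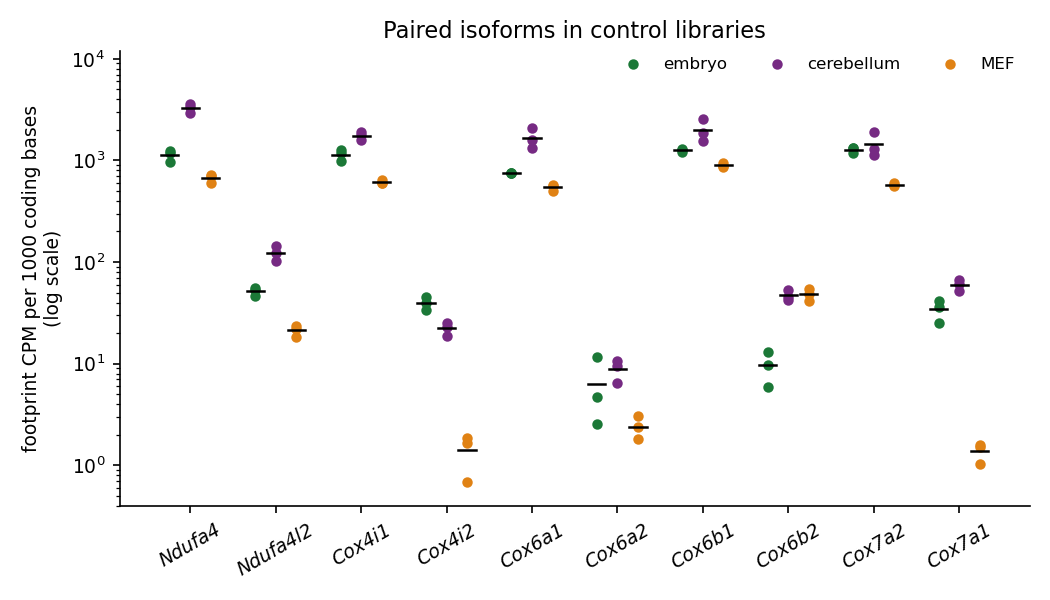
Footprint CPM per 1000 coding bases (log scale) of paired isoforms in control embryos, cerebella and MEFs (Hbs1l pool), 1 point per library with the mean as a bar. Cox4i2 and Cox7a1 drop to 1.40 and 1.38 in MEFs, while Cox6b2 is as high in MEFs as in cerebella.

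Between control tissues most subunit genes were higher in the cerebellum than in the embryo. The quasi-likelihood test of edgeR, adjusted over all 14536 genes tested by Benjamini-Hochberg, called 67 of 83 members higher in cerebella and 3 lower, where 81% of all genes were called (44.3% higher and 36.7% lower), and the median log2 difference was 0.70 for members and 0.21 for all genes. Complex I gave 34 higher members of 39 and complex V 13 of 17. The 3 lower members were Cox4i2 (log2 difference -0.73, SE 0.23), Uqcr11, a small subunit of complex III (-0.54, SE 0.19), and Sdhd, a membrane anchor of complex II (-0.33, SE 0.10), with adjusted p of 0.0102, 0.0185 and 0.00921 from edgeR. None was called lower without the first control embryo library and 1 without the first control cerebellum library. In libraries, Sdhd stood at 242, 214 and 232 CPM in embryos and 177, 178 and 191 in cerebella. The largest increases (Atp5g1, Atp5l, Cox6b2, Ndufb4 and Atp5g2) included 4 of the 6 members with no unique stretch. Cox6b2, which is not among these 6, stood at 4.69, 3.55 and 2.09 CPM in embryos and 16.3, 17.2 and 20.1 in cerebella (log2 difference 2.38, SE 0.25, adjusted p = 9.12e-07).

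In MEFs 43 of 83 members were lower than in embryos and 4 higher, where 68.4% of all genes were called (33.9% higher and 34.5% lower), with a median log2 difference of -0.38 for members and near 0 for all genes. Uqcr11 (-2.70, SE 0.21, adjusted p = 8.33e-08) and Uqcrb, a complex III subunit near the quinone site (-1.8, SE 0.14, adjusted p = 7.07e-08 from edgeR), had the largest decreases among members that pass the filter on low counts in MEFs as well. Uqcr11 stood at 128, 102 and 131 CPM in embryos and 15.8, 25.6 and 13.9 in MEFs. Unique stretches made up 41.5% of Uqcr11 and 9.4% of Uqcrb, which limits how their footprints are assigned. Cox4i2, Cox7a1 and Cox7c were also called, but they passed the filter through the tissues where they are high, so their difference is no test result and no fold is given. Cox4i2 had 62, 71 and 60 footprints in embryos and 10, 13 and 4 in MEFs. Cox7a1 had 27, 29 and 34 against 5, 4 and 5, and Cox7c at most 10 in a library. The 4 higher members were Cox6b2 (20.6, 25.4 and 27.2 CPM in MEFs, log2 difference 2.83, SE 0.25) and Ndufb4, Atp5g1 and Ndufab1, which have no unique stretch. Without the third control cerebellum library, which shares the estimate of the spread, 9 members were higher in MEFs. Tissue cannot be told apart from strain and sequencing pool, nor, for cerebella, from fragment selection, which took 26 to 34 nucleotides there and 15 to 34 for embryos and MEFs. With a trend of the differences on GC content and length of all genes removed, an alternative added after the data were seen, the MEF comparison gave 28 members higher and 20 lower and a median of 0.03, so that the balance of directions depended on it.

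In embryos, the comparison asked how loss of Hbs1l altered footprints of the subunits. No member passed the threshold in edgeR's quasi-likelihood test, where 1.87% of 11416 genes were called (0.92% higher and 0.955% lower), while 30 of 78 members and 2121 of the 11416 genes had an unadjusted p below 0.05 and DESeq2 called 2. Of the members, 56 lay below 0 and 22 above, with a median log2 fold change of -0.16 against 0.01 for all genes. Low values stood mostly in 2 of the 3 mutant replicates. Uqcr11 stood at 110, 27.9 and 19.2 CPM in Hbs1l-/- and 151, 117 and 155 in Hbs1l+/+ embryos (log2 fold change -1.37, SE 0.44, adjusted p = 0.121). Ndufs6, a zinc-binding accessory subunit of complex I, had 84.6, 43.3 and 37.4 CPM against 100, 95.1 and 107, and Ndufa7, an accessory subunit of the matrix arm, 182, 84.3 and 104 against 239, 196 and 237 (adjusted p = 0.0984 and 0.0774). In all of these the first Hbs1l-/- replicate, the deepest embryo library with 7298812 counts, lay nearest to the controls. Without it, 29 members were called, 25 lower and 4 higher, and Uqcr11 had a log2 fold change of -2.55, which leaves 2 mutant replicates. The members' median was -0.27 without the second control and -0.11 without the second Hbs1l-/- replicate.

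Other embryo members showed no such split. Atp5b stood at 3684, 3721 and 3180 CPM against 3438, 2894 and 2925, and Cox4i1 at 738, 666 and 716 against 825, 642 and 767. Cox6b2 stood higher in each Hbs1l-/- replicate, at 9.21, 8.31 and 14.5 CPM against 5.53, 4.06 and 2.48 (log2 fold change 1.39, SE 0.41, adjusted p = 0.0984). Cell type markers moved with the groups. Cardiomyocyte markers, of which 9 of 10 were lower by the same test, summed to 897 to 1412 CPM in Hbs1l-/- and 2307 to 2774 in Hbs1l+/+ embryos, with none at 0 in a group. Erythroid markers, 2 of 5 lower, summed to 3096 to 7921 against 12527 to 16389, and trophoblast markers, 3 of 5 tested higher, to 184 to 876 against 104 to 128. Endothelium markers summed to 472 to 667 CPM against 406 to 434 and fibroblast markers to 562 to 757 against 788 to 910. Skeletal muscle markers, of which 3 of 4 were at 0 in controls, summed to 20.4 to 40.3 against 90.7 to 96.9. Visceral endoderm markers overlapped. The heart form Cox7a1 stood at 4.11, 6.04 and 5.08 CPM in mutants and 10.7, 7.35 and 12 in controls, without overlap, as for 23.8% of all genes, but with an adjusted p of 0.183. The part of these markers in the values of the subunits was not tested.

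In cerebella, 79 of 84 members lay below 0, but none passed the threshold in edgeR's test, where 0.0624% of 14430 genes were called (0.0554% higher and 0.00693% lower). The median log2 fold change was -0.17 for members and 0.00 for all genes, 7 members and 1936 of the 14430 genes had an unadjusted p below 0.05, and DESeq2 called 1. The members' median had a combined SD of 0.15 over the replicates of both groups and was -0.10 without the first Hbs1l-/- mouse. The quartiles of the members were close together, at -0.26 and -0.10, and all 20 measured core subunits lay below 0. Atp5g3 stood at 865, 907 and 937 CPM in mutant and 1233, 1318 and 1161 in control cerebella (log2 fold change -0.45, SE 0.13, adjusted p = 0.187). Cox7b, a small subunit of complex IV, had 221, 231 and 295 CPM against 306, 343 and 344, and Ndufa1, a small membrane arm subunit, 153, 200 and 198 against 223, 250 and 286. These groups did not overlap, as was so for 18.3% of all genes, whereas Atp5a1 (1848, 1610 and 1544 CPM against 2473, 2454 and 1464) and Ndufs1 (327, 257 and 265 against 440, 416 and 262) overlapped through the third control mouse. Purkinje cell markers, 0 of 4 called and all 4 with an unadjusted p below 0.05, summed to 4548 to 5932 CPM in mutant and 5961 to 11140 in control cerebella, with none at 0. Macrophage markers summed to 132 to 144 CPM against 102 to 120, and granule neuron markers overlapped. Controls spread widely in skeletal muscle (17.3 to 25.1 CPM in mutants against 11.7 to 124) and cardiomyocyte markers (7.08 to 8.76 against 6.36 to 59.3). The part of these markers in the values of the subunits in cerebella was not tested. The difference between the effects in embryo and cerebellum, tested as an interaction, called none of 83 members (edgeR, 0.732% of all genes, 0.267% higher and 0.465% lower, 11 members and 2298 of 14624 genes with an unadjusted p below 0.05, 3 members by DESeq2). Without the first Hbs1l-/- embryo replicate it called 8. On simulated data the embryo test recovered 11% of 1.5-fold and 67% of 2-fold changes. The cerebellum test recovered 25% and 79%, and the interaction 1% and 23%. Absent calls in these tests therefore do not show absent effects.

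**Figure D3:**
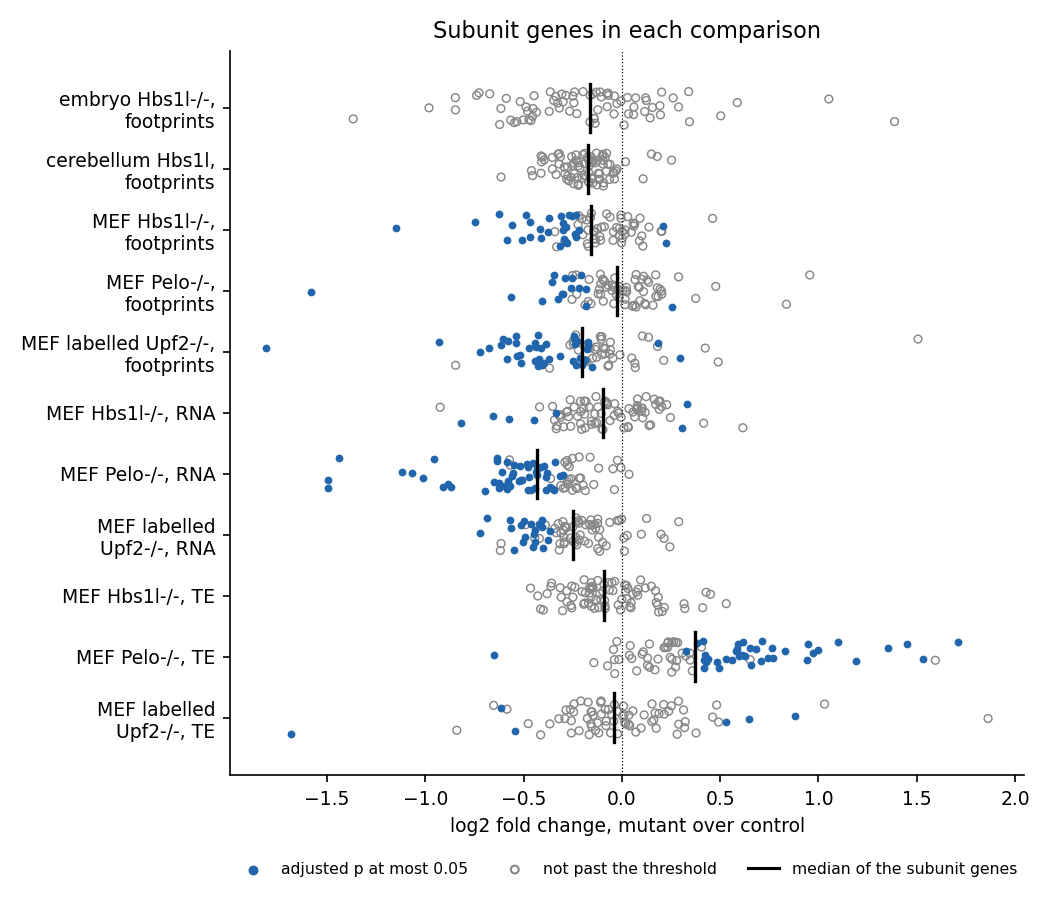
Log2 fold change of mutant over control for each subunit gene in the 11 mutant comparisons (TE is translational efficiency, footprints relative to RNA), filled where the adjusted p is at most 0.05, with the median as a bar. Medians lie between -0.43 (Pelo-/- RNA) and 0.37 (Pelo-/- TE), and no point is filled for embryos, cerebella and Hbs1l-/- TE.

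In Hbs1l-/- MEFs, footprints of 27 of 79 members fell and those of 2 rose, where 34.1% of 11984 genes were called by edgeR's test (17.4% higher and 16.7% lower). Complex IV had the largest share of decreases, 8 of 11 members, against 12 of 39 in complex I, 4 of 17 in complex V and 3 of 8 in complex III, and no complex II member was called. The median log2 fold change was -0.16 for members and -0.01 for all genes. Cox6b2 fell most, from 16.8, 20.2 and 22.1 CPM in controls to 9.02, 9.72 and 8.09 (log2 fold change -1.15, SE 0.14, adjusted p = 4.83e-05). Its common form Cox6b1 fell as well, from 229, 251 and 224 CPM to 168, 143 and 144 (-0.63, SE 0.08, adjusted p = 4.81e-05). Uqcrh, the hinge protein that binds cytochrome c1, fell from 74.7, 78.6 and 68.1 CPM to 54.5, 44.1 and 50.5 (-0.56, SE 0.09, adjusted p = 0.000395). The groups of these 3 members did not overlap, as in 46.4% of all genes. Ndufa7 (-0.75, SE 0.15) and Ndufb4 (-0.59, SE 0.17), which has no unique stretch, were the other members with the largest decreases. Ndufa7 was lowest in the first Hbs1l-/- replicate (49.7 CPM against 81.1 and 84.2 in the others).

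The complex IV decreases took in most of its common isoforms. Cox8a, its smallest subunit, stood at 177, 166 and 175 CPM against 225, 250 and 215 (log2 fold change -0.41, SE 0.07), Cox6c at 98.4, 102 and 119 against 138, 142 and 174 (-0.51, SE 0.10), and Cox4i1 at 326, 356 and 334 against 407, 395 and 378 (-0.22, SE 0.06), with adjusted p of 0.00056, 0.0012 and 0.0166 (edgeR). Cox6a1 (-0.30, SE 0.08) and Cox7a2 (-0.29, SE 0.07) fell as well. Unique stretches made up 33.2% of Cox6c. The 2 members that rose were long, Atp5a1, from 977, 1006 and 971 CPM to 1163, 1160 and 1132 (0.23, SE 0.06, adjusted p = 0.0068), and Ndufs1, from 167, 174 and 174 CPM to 202, 196 and 198 (0.21, SE 0.06, adjusted p = 0.0172). Atp5b, the partner of Atp5a1, stood at 2035, 1904 and 1948 CPM against 1891, 2098 and 1835 and Sdha at 343, 341 and 355 against 324, 323 and 328, neither past the threshold.

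Fold changes in Hbs1l-/- MEFs went with coding length. Of 18 members with at most 300 coding bases 10 fell and none rose, of 36 with over 300 and up to 600 bases 14 fell, of 15 with over 600 and up to 1200 bases 1 fell, and of 9 longer members 1 fell and 2 rose. With the coding length of the leading transcript, chosen after seeing the data, the members that fell were 13 of 21, 13 of 39, 0 of 10 and 0 of 8. Spearman's rho with coding length was 0.61 over 78 members (0.64 with the leading transcript) and 0.23 over 11968 genes, a description across genes that share the same libraries. It was 0.49 over 82 members in Hbs1l-/- RNA (all genes -0.01), 0.39 over 80 in Pelo-/- RNA (0.25), 0.35 over 77 in embryo footprints (0.15), 0.25 over 80 in labelled Upf2-/- footprints (0.13), 0.14 over 83 in cerebella (-0.04), 0.10 over 82 in labelled Upf2-/- RNA (-0.03) and 0.01 over 80 in Pelo-/- footprints (0.03). With the trend on GC content and length of all genes removed, the members called in Hbs1l-/- MEFs were 15, 4 higher and 11 lower, with a median of -0.02, and without the first control replicate they were 19. Cox4i1, Cox6a1 and Cox7a2 were not called with the trend removed (adjusted p = 0.368, 0.117 and 0.08 from edgeR). Summed skeletal muscle markers, 3 of 3 tested lower, were 22.6 to 41.0 CPM in Hbs1l-/- and 127 to 184 in control MEFs, and fibroblast markers, 7 of 7 higher, 20988 to 25280 against 17919 to 18115. Macrophage markers, 4 of 5 higher, were 162 to 219 CPM against 91.5 to 123 and endothelium markers, 2 of 3 tested lower, 38.8 to 43.4 against 69.2 to 82.7. No marker of these lists was at 0 throughout a group, and their part in the result was not tested.

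**Figure D4:**
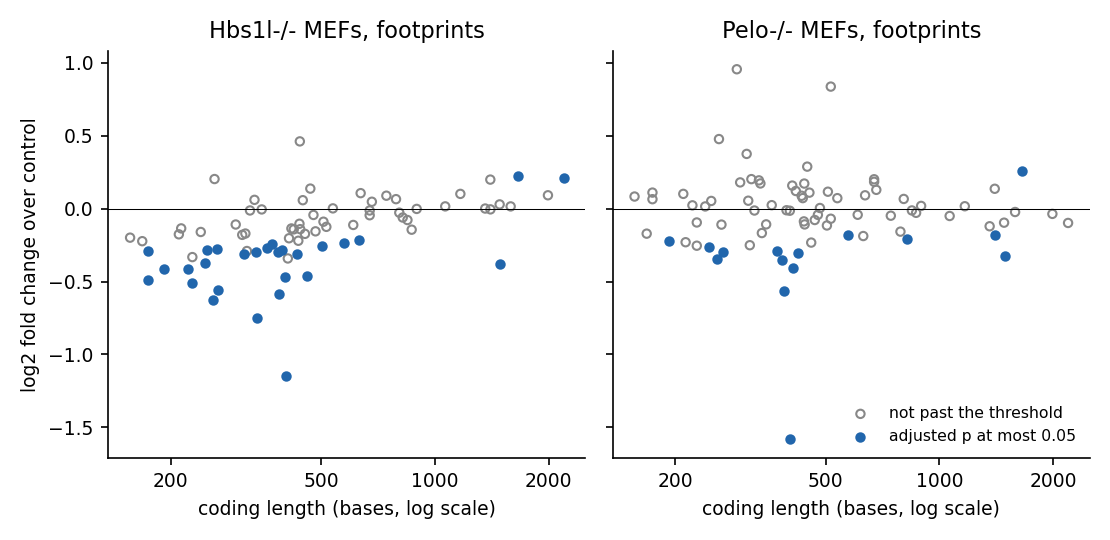
Footprint log2 fold change against coding length (log scale) for subunit genes in Hbs1l-/- MEFs (left) and Pelo-/- MEFs (right), filled where the adjusted p is at most 0.05. In Hbs1l-/- cells short members lie lowest and the 2 that rose are over 1200 bases, with rho of 0.61, against 0.01 in Pelo-/- cells.

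In Pelo-/- MEFs, footprints of 15 of 81 members fell and those of 1 rose, where 44.1% of 12486 genes were called (22.9% higher and 21.2% lower), so that a smaller share of members than of all genes was called. The median log2 fold change was -0.02 for members and 0.00 for all genes. Complex I gave 9 of the decreases, complex III 3, complex IV 2 and complex V 1. Cox6b2 again fell most, from 20.4, 17.7 and 22.1 CPM to 7.90, 6.02 and 6.23 (log2 fold change -1.58, SE 0.14, adjusted p = 1.88e-05), and Cox6b1 fell from 233, 258 and 221 CPM to 204, 191 and 165 (-0.35, SE 0.09, adjusted p = 0.0109). Ndufb6, an accessory subunit of the membrane arm, fell from 172, 178 and 163 CPM to 143, 129 and 130 (-0.35, SE 0.07), and Ndufb7, of the same arm, from 72.5, 66.0 and 57.0 to 47.5, 50.2 and 49.7 (-0.41, SE 0.09). Groups did not overlap in these 4 members, nor in 55.4% of all genes. Atp5a1 rose from 974, 1013 and 940 CPM to 1163, 1157 and 1174 (0.26, SE 0.06, adjusted p = 0.0073). Of the core subunits, Uqcrfs1, the Rieske iron-sulfur protein of complex III, fell from 191, 203 and 180 CPM to 161, 176 and 159 (-0.21, SE 0.07, adjusted p = 0.0356).

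A test of the difference between the Pelo and Hbs1l effects on footprints, an interaction over 12 libraries, called 4 of 81 members, where 5.55% of 12526 genes were called (3.45% higher and 2.1% lower). Cox6a1 (difference 0.48, SE 0.11), Cox8a (0.44, SE 0.10) and Ndufa3, a small complex I subunit (0.30, SE 0.08), were higher in Pelo-/- relative to Hbs1l-/-, and Ndufs1 was lower (-0.30, SE 0.07). Cox8a stood at 237, 244 and 235 CPM in Pelo-/- cells and 176, 165 and 175 in Hbs1l-/- cells. The 6 control libraries of this fit may be 3 sequenced again, and they were counted as 6. Comparing the mutants directly, across sequencing pools, called more members, as given with the processing below. Leaving out either first control replicate left 0 members called, the third control of the Pelo pool or the third Hbs1l-/- replicate 1, and the first Hbs1l-/- replicate 2. With the trend on GC content and length removed 2 were called, 1 in each direction, and Cox8a, Ndufa3 and Ndufs1 did not pass (adjusted p = 0.0979, 0.264 and 0.0703 from edgeR). Summed macrophage markers, 5 of 5 higher, were 345 to 501 CPM in Pelo-/- and 91.3 to 126 in control MEF footprints, and fibroblast markers, 6 of 7 higher, 22874 to 29210 against 17922 to 18073. Skeletal muscle markers, 1 of 3 tested lower, were 30.9 to 58.4 CPM against 129 to 185 and endothelium markers, 2 of 4 tested lower and 1 higher, 25.1 to 31.9 against 73.6 to 81.4. No marker of these lists was at 0 throughout a group, and their part was not tested. Without the first control replicate, 10 members were called in the Pelo comparison.

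In the libraries labelled Upf2-/-, footprints of 39 of 81 members fell and those of 2 rose, where 43.4% of 12166 genes were called (22.3% higher and 21.1% lower), with a median log2 fold change of -0.20 for members and 0.00 for all genes. Decreases were found in every complex, 17 of 39 members in complex I, 2 of 4 in complex II, 4 of 8 in complex III, 9 of 13 in complex IV and 7 of 17 in complex V. Cox7a2, a small complex IV subunit, fell from 147, 152 and 141 CPM to 79.6, 96.4 and 98.3 (-0.68, SE 0.08, adjusted p = 7.97e-05), and Ndufv3, an accessory subunit of the NADH-binding module, from 72.8, 71.0 and 79.1 to 47.9, 45.8 and 41.6 (-0.72, SE 0.08, adjusted p = 4.18e-05). Cox8a fell from 233, 261 and 218 CPM to 152, 168 and 169. Cox5b, which binds zinc and has 24.9% unique stretches, fell from 72.3, 59.9 and 89.3 to 46.9, 55.1 and 42.6. Ndufb3, of the membrane arm, fell from 32.4, 39.1 and 34.7 CPM to 18.1, 26.3 and 23.8. The groups of these 5 members did not overlap, as in 54.1% of all genes. Of 20 core subunits 6 fell and 2 rose, with a median of -0.15. Examples of decreases were Uqcrc1 (386, 366 and 416 CPM against 448, 457 and 423), Uqcrc2 (269, 273 and 281 against 306, 309 and 311) and Sdha (299, 300 and 283 against 326, 326 and 328), which fell by 0.19, 0.17 and 0.15 on the log2 scale. Sdha did not pass by DESeq2 (adjusted p = 0.0729).

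Ndufv1 rose in these libraries, from 95.8, 100 and 91.2 CPM to 113, 110 and 130 (log2 fold change 0.30, SE 0.08, adjusted p = 0.0104), and so did Atp5a1, from 986, 1033 and 946 to 1106, 1101 and 1162 (0.18, SE 0.06, adjusted p = 0.0261). Atp5a1 thus rose in each of the 3 MEF footprint comparisons, which share their controls. Atp5l had the largest fitted decrease, on 1, 3 and 4 footprints against 14, 14 and 23, and Ndufb4 fell by 0.93 on the log2 scale (SE 0.20), both members with no unique stretch. Without the first control replicate 26 members were called. Summed skeletal muscle markers, 1 of 3 tested lower, were 17.8 to 31.0 CPM in these libraries and 129 to 184 in their controls, and fibroblast markers, 6 of 7 higher and 1 lower, 24825 to 27059 against 18038 to 18240. Macrophage markers, 3 of 5 higher, were 123 to 158 CPM against 90.6 to 122 and endothelium markers, 1 of 3 tested lower and 1 higher, 54.8 to 61.6 against 68.9 to 82.7. No marker of these lists was at 0 throughout, and their part was not tested. With the trend on GC content and length removed, 26 members were lower and 7 higher, with a median of -0.10.

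In RNA of Hbs1l-/- MEFs edgeR called 5 of 83 members lower and 2 higher, where 23.1% of 15318 genes were called (12.7% higher and 10.4% lower), and the medians were -0.10 and -0.01. The members' median was -0.05 without the first, -0.19 without the second and -0.06 without the third control library. Cox6b2 fell from 14, 11.1 and 13.5 CPM to 7.64, 6.50 and 7.85 (-0.82, SE 0.14, adjusted p = 0.00454), and Atp5md, a small ATP synthase subunit needed for its dimers, from 106, 95.0 and 112 to 58.2, 69.6 and 71.2 (-0.66, SE 0.11, adjusted p = 0.00417). Cox7b (-0.57, SE 0.16), Ndufa4 (-0.45, SE 0.14) and Cox6c (-0.34, SE 0.10) were the other decreases. Both increases passed only with all 6 libraries, and neither was called when any 1 of them was left out. Ndufv1 rose from 122, 111 and 131 CPM to 154, 141 and 164 and Atp5a1 from 855, 769 and 859 to 1055, 955 and 1063, with adjusted p of 0.0401 and 0.0497. In this RNA summed skeletal muscle markers, 2 of 4 lower, were 15.7 to 30.06 CPM against 104 to 131, fibroblast markers, 5 of 7 higher, 5734 to 9629 against 3596 to 6031, macrophage markers, 3 of 5 higher, 123 to 169 against 65.9 to 96.6 and endothelium markers, 2 of 4 tested lower, 16.1 to 18.2 against 28.8 to 37.3, none at 0, and their part was not tested. The count fell to 2 without the second Hbs1l-/-, the first control or the third control library and to 3 without the first Hbs1l-/- library. DESeq2 called 14, 12 lower and 2 higher, edgeR with RLE in place of TMM factors called 5 lower and 1 higher, without Atp5a1 (adjusted p = 0.0534), and removing the trend on GC content and length left 9 lower and 2 higher.

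Of the RNA comparisons, that of Pelo-/- MEFs called the most subunits. edgeR called 50 of 81 members lower and none higher, where 32.1% of 14705 genes were called (15.5% higher and 16.6% lower), and 80 of the 81 lay below 0, with a median log2 fold change of -0.43 against -0.01 for all genes. The decreases held 28 of 38 members of complex I, 6 of 8 of complex III, 11 of 17 of complex V and 5 of 14 of complex IV, while none of the 4 complex II genes passed. The leading decreases were Uqcrb (ENSMUSG00000021520.4, chr13:66900617-66905378 in GRCm38, minus strand), Cox7b (ENSMUSG00000031231.4, chrX:106015700-106022450, plus strand) and Ndufa5, an accessory subunit of the quinone module of complex I (ENSMUSG00000023089.12, chr6:24518666-24528013, minus strand). Uqcrb fell from 48.4, 46.0 and 56.0 CPM to 18.3 and 17.2 (-1.50, SE 0.12, adjusted p = 0.000718). Cox7b fell from 72.6, 71.0 and 76.4 CPM to 24.7 and 27.4 (-1.50, SE 0.09, adjusted p = 0.000399), and Ndufa5 from 24.1, 23.96 and 27.9 to 8.71 and 10.01 (-1.44, SE 0.13, adjusted p = 0.000878). Both Pelo-/- libraries lay below every control library in these 3 genes, and groups did not overlap in 62.2% of all genes. Their first 30 coding bases in Gencode M21 are given with the start codon in capitals, since Uqcrb and Cox7b share them with 1 other gene each and Ndufa5 with 0, which limits how reads are assigned.
Uqcrb (minus strand, the stretch spans an intron): ATGgcgggccgatctgctgtttcagcatca
Cox7b (chrX:106015831-106015860, plus strand): ATGttgcccttagccaaaaacgcactaagc
Ndufa5 (minus strand, the stretch spans an intron): ATGgcgggcttgctgaaaaagacaactggc

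Ndufs4, an accessory subunit of the matrix arm, fell from 52.3, 44.3 and 46.7 CPM to 17.8 and 26.2 (-1.12, SE 0.17), Ndufa1 from 24.4, 21.5 and 24.8 to 10.8 and 11.7 (-1.07, SE 0.12), and Ndufa4 from 144, 119 and 132 to 58.6 and 72.5 (-1.01, SE 0.12). Atp5pb, subunit b of the peripheral stalk, fell from 222, 196 and 215 CPM to 109 and 109 (-0.96, SE 0.09, adjusted p = 9e-04), and Ndufs8, an iron-sulfur core subunit, from 99.0, 86.3 and 105 to 61.7 and 61.6 (-0.65, SE 0.10, adjusted p = 0.0041). Of 20 core subunits 9 fell. Ndufs1, the longest of them, fell from 69.7, 73.0 and 71.2 CPM to 48.2 and 45.3 (-0.61, SE 0.08, adjusted p = 0.00232). Members named here that did not pass were Atp5b at 1812 and 1741 CPM against 1869, 1671 and 1656, Atp5a1 at 763 and 733 against 839, 783 and 857, and Sdha at 153 and 154 against 162, 166 and 171. Cox6b2 fell in RNA as in footprints, from 13.7, 11.3 and 13.5 CPM to 6.95 and 6.72 (-0.91, SE 0.13).

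Summed fibroblast markers, 1 of 7 called higher, were 7782 to 7856 CPM in Pelo-/- and 3596 to 6031 in control RNA, and macrophage markers, 1 of 5 higher, 98.8 to 142 against 65.9 to 96.6. Skeletal muscle markers summed to 125 to 133 CPM against 104 to 131 and endothelium markers to 34.2 to 40.4 against 28.8 to 37.3, both with overlap. In footprints, by contrast, these lists were lower in Pelo-/- than in control MEFs. No marker of these lists was at 0 throughout, and their part in the RNA and TE values was not tested. The count depended on each Pelo-/- library. It was 13 without the first and 23 without the second Pelo-/- library, each of which leaves 1 mutant sample that is assumed to vary like the controls. With the trend on GC content and length of all genes removed, it was 24, 23 of them lower, with a median of -0.14. Ndufs4 and Ndufa4 were then not called (adjusted p = 0.092 and 0.0803 from edgeR), and Atp5a1 and Sdha were (log2 fold change -0.28 and -0.25). Between the mutants themselves, 43 of 81 members were lower in Pelo-/- than in Hbs1l-/- RNA and none higher, where 35.2% of 14878 genes were called (18.9% higher and 16.3% lower), and without the first or the second Pelo-/- library the count was 5 or 6. With the trend on GC content and length removed it was 23, of which 3 were higher and 20 lower. With the replicate number as a block, this count and that of Pelo-/- against control RNA were lower, as given with the processing below. Ndufa5 stood at 8.91 and 10.3 CPM in Pelo-/- and 18.6, 22.7 and 24.7 in Hbs1l-/- libraries (-1.20, SE 0.16, adjusted p = 0.00131 from edgeR).

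In RNA of the libraries labelled Upf2-/-, 20 of 83 members fell and none rose, where 20% of 15983 genes were called (13.2% higher and 6.76% lower), with medians of -0.25 for members and -0.02 for all genes. Complex I held 10 of the decreases, complex V 4, complex IV 3, complex III 2 and complex II 1. Ndufa5 fell from 24.9, 23.9 and 28.3 CPM to 19.2, 15.8 and 12 (-0.72, SE 0.17, adjusted p = 0.0159), Uqcrb from 50.1, 45.9 and 56.9 to 38.6, 32.6 and 24 (-0.69, SE 0.17, adjusted p = 0.0176), and Ndufv2, an iron-sulfur core subunit, from 101, 85.1 and 99.4 to 70.7, 64.4 and 60.6 (-0.55, SE 0.11, adjusted p = 0.00722). The third mutant library was the lowest in each, and the groups did not overlap, as in 39.9% of all genes. Atp5pb (-0.57, SE 0.14), Ndufs4 (-0.57, SE 0.16) and Sdha (-0.49, SE 0.12) fell as well. Sdha stood at 134, 126 and 102 CPM against 168, 166 and 174. Summed skeletal muscle markers, 1 of 3 tested lower, were 46.4 to 86.5 CPM against 104 to 131 and endothelium markers, 1 of 4 tested lower, 21.4 to 28.5 against 28.8 to 37.3, none at 0, and their part was not tested. Fibroblast markers (3943 to 5034 CPM against 3596 to 6031) and macrophage markers (63.0 to 125 against 65.9 to 96.6) overlapped. The count was 1 without the third control, 2 without the second mutant and 4 without the first control library. With the trend on GC content and length removed it was 28, 24 lower and 4 higher.

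Transcripts of the members that are annotated as NMD targets were examined beside this, since NMD is the pathway of UPF2. The members have 25 such transcripts in 21 genes, and these held 2.11% to 2.29% of the members' summed TPM in the libraries labelled Upf2-/-, 1.84% to 1.92% in controls, 1.71% to 1.87% in Hbs1l-/- and 1.53% to 1.55% in Pelo-/- cells. Those of Atp5j2, subunit f of ATP synthase, summed to 38.0, 33.0 and 35.3 TPM in the labelled Upf2-/- libraries and 8.03 to 13.9 in controls, and those of Ndufs6 to 19.3, 16.9 and 16.1 against 6.37 to 7.58. Ndufa7 had 63.5, 73.5 and 82.3 TPM of them against 35.5 to 39.3, and the first Hbs1l-/- library had 83 TPM, while Atp5pb had 54.5 to 106 against 115 to 137. Of the 8 genes with such a transcript at 5 TPM or more in a library, 4 lay above all controls in these libraries (Ndufb8 as well), 2 below (Atp5pb and Ndufs4) and 2 overlapped them (Ndufa3 and Ndufa10). Over all 638 genes with such a transcript, 55.6% lay above and 4.7% below all controls. These are values without a test across transcripts.

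Translational efficiency (TE) is the change of footprints relative to the change of RNA, fitted as an assay by genotype interaction. In Pelo-/- MEFs it rose for 38 of 80 members and fell for 1, where 44.6% of 12143 genes were called (24.3% higher and 20.4% lower), with a median log2 difference of 0.37 for members and 0.04 for all genes. The same RNA libraries enter the RNA test and this one. Cox7b footprints stood at 89.2, 94.6 and 97.3 CPM in Pelo-/- and 89.9, 86.5 and 102 in control MEFs while its RNA fell, a TE difference of 1.53 (SE 0.12, adjusted p = 1.81e-06 from edgeR). Uqcrb footprints stood at 13.8, 12.5 and 16.1 CPM against 11.8, 13.7 and 11.7 (TE difference 1.71, SE 0.17, adjusted p = 1e-05), and Ndufa5 footprints at 52.5, 49.3 and 53.4 against 50.5, 54.3 and 62.5 (1.36, SE 0.15, adjusted p = 2.21e-05). Footprint groups overlapped in all 3. Unique stretches made up 65.9% of Cox7b, 9.4% of Uqcrb and 96.6% of Ndufa5, which limits the Uqcrb values most. Ndufs4 (1.1, SE 0.17) and Ndufa1 (1.19, SE 0.14) followed, and the 38 also hold Cox4i2, with 18, 22 and 48 footprints against 13, 6 and 9. It did not pass the filter on low counts in Hbs1l-/- MEFs and was not called by DESeq2 (adjusted p = 0.0711), and no difference is given for it. Cox6b2 was the single member with lower TE (-0.65, SE 0.20, adjusted p = 0.018), as its footprints fell by more than its RNA.

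By complex, TE was higher for 21 of 38 members of complex I, 11 of 17 of complex V, 4 of 13 of complex IV, 1 of 8 of complex III and 1 of 4 of complex II. Atp5b had a TE difference of -0.04 (SE 0.13). Without a library the count ran from 27 to 51, and with the trend on GC content and length removed it was 31, with a median of 0.22.

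**Figure D5:**
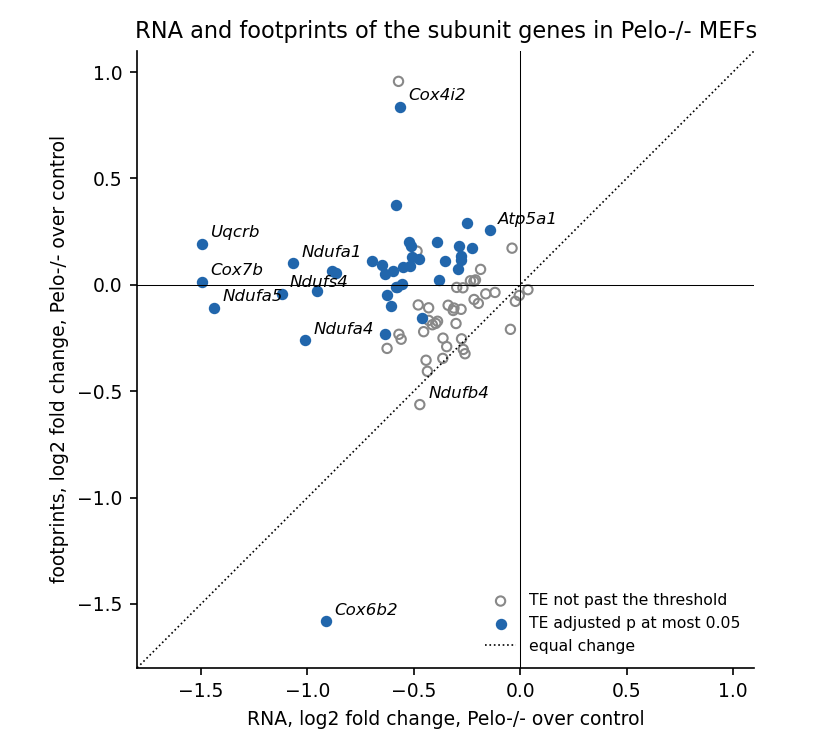
Log2 fold change of footprints against that of RNA in Pelo-/- over control MEFs for the 80 subunit genes tested in both, filled where the TE difference has an adjusted p of at most 0.05, with the line of equal change. Most points lie left of 0 on the RNA axis and near 0 on the footprint axis, with Uqcrb and Cox7b at -1.50 in RNA, and Cox6b2 lies low on both.

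In Hbs1l-/- MEFs edgeR called 0 of 79 members in TE, where 0.0336% of 11907 genes were called, 0.0168% in each direction. By the same test 7 members and 2064 genes had an unadjusted p below 0.05. DESeq2 called 0 members, and the medians were -0.09 for members and -0.02 for all genes. So few calls over all genes do not show that TE was unchanged. In the libraries labelled Upf2-/-, TE rose for 3 of 80 members and fell for 3, where 20.3% of 12054 genes were called (8.47% higher and 11.8% lower), with medians of -0.04 and -0.03. Uqcrb (0.88, SE 0.28), Ndufa5 (0.65, SE 0.21) and Ndufb5 (0.53, SE 0.14) rose, and Ndufa7 (-0.61, SE 0.17) and Cox8a (-0.54, SE 0.18) fell. The third decrease was Atp5l, which has no unique stretch and had 1, 3 and 4 footprints against 14, 14 and 23, and it is not read as lower translation. The split was not stable, since removing the trend on GC content and length gave 19 higher and 1 lower. The count was 2 without the first footprint control, 3 without the third labelled Upf2-/- or the third control RNA library and 12 without the first labelled Upf2-/- RNA library.

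Promoters were read for a motif that many of these genes are known for, the core letters of the nuclear respiratory factor NRF1 (CGCATGCG, the same on both strands), and for the core motif of ETS factors (CCGGAAG on either strand), which include the nuclear respiratory factor GABP. RefSeq promoters on GRCm38.p6, from 250 bases before to 50 after the start, matched 69 members. The NRF1 letters were in 9 of them (13.0%), against 2.07% of 27025 genes, and the ETS letters in 17 (24.6%), against 9.93%. The windows of 4 members with the NRF1 letters in capitals, written along the gene, show how the flanks differ around them.
Cox6a1 (chr5:115349101-115349130, minus strand): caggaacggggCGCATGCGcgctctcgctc
Ndufa8 (chr2:36049329-36049358, minus strand): gtcgctggagaCGCATGCGcagatggtacc
Uqcr11 (chr10:80406808-80406837, minus strand): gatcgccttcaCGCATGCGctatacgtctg
Uqcrc1 (chr9:108936668-108936697, plus strand): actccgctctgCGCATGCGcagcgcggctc

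Pelo-/- RNA was described for members with and without these letters. Of 9 members with the NRF1 letters 6 were called lower and of 57 without them 36, with medians of -0.39 and -0.43. Of 17 with the ETS letters 13 were called lower and of 49 without them 29, with medians of -0.46 and -0.39. A match is a description of the sequence and not a binding site, and its absence says only that these letters are not in this window.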

How the data were processed

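Footprints were measured in 30 libraries of embryos, cerebella and MEFs and poly(A) RNA in 11 libraries of MEFs, from 2634480 to 86425762 counts per library. The footprint counts are whole read counts per gene on coding sequences that the authors deposited, made after adapter clipping and removal of ribosomal, small nucleolar and transfer RNA reads with Bowtie2 (2.2.3) by alignment to mm10 with HISAT2 (2.1.0) and counting with featureCounts, per the submitters' processing notes and the study's methods. The RNA tables hold estimated counts and TPM per transcript, which the authors made with kallisto (0.42.4). Reads that fit several genes are treated differently by these methods, which bears on members with close copies.

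RNA values were added up over the transcripts of a gene and rounded to whole counts. Genes with low counts were removed with filterByExpr, histone genes were left out of footprint and TE tests, libraries were scaled by TMM, and edgeR (4.0.16) in R (4.3.3) gave quasi-likelihood tests over all genes with Benjamini-Hochberg adjustment at 0.05. TE was an assay by genotype interaction, scaled by TMM in each assay. Log2 fold changes came from the edgeR fit at its default settings. A prior count of 2 was used for the log2 CPM behind the trend, the spread of medians and the correlations between libraries. The tests were checked on simulated data. Other settings tried were no filter, RLE factors, DESeq2 (1.42.0), a replicate block, protein_coding transcripts alone, mutants compared without controls, and leaving out each library. A loess trend on GC content and length (span 0.3) was added after the data were seen. Columns of the files that belonged to no sample numbered 0.

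The members and lists were chosen with earlier results of these data known. Named by rule were members of largest change past the threshold in each comparison and a fixed group of core subunits and isoforms. Uqcr11, Ndufa7, Ndufs6 and Cox6b2 in embryos and other members that did not pass were named after their values were seen.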

Additional observations from a re-analysis of the deposited data

How the results depend on the processing

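Counts are members called. DESeq2 gave 2 for embryos, 1 for cerebella, 3 for the embryo and cerebellum difference and 14 for Hbs1l-/- RNA (edgeR gave 0, 0, 0 and 7). No filter on low counts gave 6 for embryos, and protein_coding transcripts alone gave 11 for Hbs1l-/- RNA. The Pelo and Hbs1l footprint mutants compared directly, which sets 2 sequencing pools against each other, gave 17 (4 with controls). Removing the trend on GC content and length, chosen after seeing the data, gave 1 for embryos, 3 for the embryo and cerebellum difference, 15 for Hbs1l-/- footprints, 11 for Hbs1l-/- RNA, 24 for Pelo-/- RNA, 20 for labelled Upf2-/- TE, 2 for the footprint and 23 for the RNA difference of Pelo and Hbs1l. It turned the sign of some log2 values that were not called: Cox4i1 in embryos to 0.251, Ndufs4 and Ndufa5 footprints in Pelo-/- and labelled Upf2-/- cells to 0.0041 and 0.0455, and Atp5b in Pelo-/- cells to -0.0149 in RNA and 0.0126 in TE. The cause was not tested. 

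Leaving out a library gave 0 to 29 for embryos, 0 to 8 for the embryo and cerebellum difference, 19 to 29, 10 to 16 and 26 to 38 for Hbs1l-/-, Pelo-/- and labelled Upf2-/- footprints, 2 to 7, 13 to 61 and 1 to 21 for their RNA, 27 to 51 and 2 to 12 for Pelo-/- and labelled Upf2-/- TE, and 0 to 5 and 5 to 54 for the footprint and RNA differences of Pelo and Hbs1l. Sign changes were in members not called: Cox4i1 in embryos (-0.1731 to 0.0089), Atp5b (-0.021 to 0.0772 in Hbs1l-/-, -0.063 to 0.0294 in Pelo-/-, and -0.1039 to 0.0141 in Pelo-/- TE), Cox7b (-0.0347 to 0.0875 in Pelo-/-), Ndufa5 (-0.1576 to 0.0224) and Uqcrb (-0.0484 to 0.3786) in labelled Upf2-/- footprints.

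With the replicate number as a block the counts were 8 for embryos, 31 for Pelo-/- RNA and 17 for the RNA difference of Pelo and Hbs1l, and 32, 22 and 33 for Hbs1l-/-, Pelo-/- and labelled Upf2-/- footprints. Deviations of same-numbered libraries had correlations of -0.237 to 0.219, so the numbers were not read as pairs. 

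RLE factors left every count within 1.5 times its value, and the shallowest library, of embryos, had 2634480 counts.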

Other observations

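The 13 subunits encoded in the mitochondrial genome, which partner the nuclear ones, were read beside them in MEFs. In Hbs1l-/- MEFs edgeR called 9 of 13 lower and 0 higher in footprints (16.7% of all genes lower) and 8 lower in RNA (10.4% lower), with median log2 fold changes of -0.77 and -0.64. mt-Nd4, a membrane subunit of complex I, had 158 ± 28 CPM of footprints against 303 ± 62.6 in controls (SD, n = 3 each, edgeR adjusted p = 0.000186). In Pelo-/- MEFs 7 of 13 were higher in footprints and 0 lower (22.9% and 21.2% of all genes), with a median of 0.59, while 4 were higher and 3 lower in RNA (15.5% and 16.6%). In the footprints labelled Upf2-/- 4 were higher and 2 lower (22.3% and 21.1%). The difference between the Pelo and Hbs1l effects on footprints, tested as an interaction, was called higher in 9 of 13 (3.45% of all genes), and 7 had higher RNA in Pelo-/- than in Hbs1l-/- cells, compared directly (18.9%). Of the 7 that were higher, mt-Co2 had 33.5 ± 5.55 CPM of footprints in Pelo-/- and 11.1 ± 3.37 in control MEFs (SD, n = 3 each) against 1090 CPM of RNA in controls, whereas mt-Co1 had 2505 ± 585 and 1659 ± 331 (SD, n = 3 each) against 1800 CPM of RNA. What sets the low footprints of mt-Co2 was not tested.

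Of 19 glycolytic genes, edgeR called 10 higher and 4 lower in Pelo-/- footprints, where 22.9% of all genes were called higher and 21.2% lower. Pfkl, the liver form of phosphofructokinase, rose by 0.79 (SE 0.08) and Tpi1, triosephosphate isomerase, by 0.73 (SE 0.06) on the log2 scale. In the same comparison 1 of 13 genes of the TCA cycle was called higher and 1 lower. Of 46 tested assembly factors, RNA of 12 fell and 1 rose in Pelo-/- cells (16.6% and 15.5% of all genes), and 12 rose and 1 fell in the libraries labelled Upf2-/- (13.2% and 6.76%). Uqcc1, an assembly factor of complex III, had the largest of those increases (log2 fold change 1.06, SE 0.11), and Tmem126b, of complex I assembly, fell by 1.34 (SE 0.14) in Pelo-/- RNA. Of the 5 other respiratory chain genes 4 fell in Pelo-/- RNA, among them Cycs, the electron carrier cytochrome c (-0.51, SE 0.08). Regulators of mitochondrial gene expression gave 4 of 11 higher in Pelo-/- footprints and 2 higher and 3 lower in RNA, and import and mass genes 6 higher and 3 lower of 15 in those footprints and 0 higher and 5 lower of 16 in RNA, with the shares over all genes as given above for these footprints and this RNA.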
